A study of Mus musculus with 4 samples.

Results

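Cytosolic ribosomal protein genes are the genes whose products, together with ribosomal RNA, form the large subunit (Rpl genes and the stalk proteins Rplp0, Rplp1 and Rplp2) and the small subunit (Rps genes and Rpsa) of the ribosome. They were chosen by symbol from the table of RNAseq values: 85 of the 24026 genes listed carry such a symbol, 52 for the large and 33 for the small subunit, and symbols that mark a pseudogene by the ending -ps were left out. Rpl32l and Rps4l carry no such ending and stay in, although both are annotated as processed pseudogenes. No measured value was used in the choice.

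Ribosomal proteins are made in roughly equal amounts, assembled on ribosomal RNA in the nucleolus and exported as subunits. Their messenger RNAs are short and abundant in growing cells, and they begin with a run of pyrimidines, the 5′ terminal oligopyrimidine tract (TOP), through which mTOR signalling adjusts their translation. Mammalian genomes also hold many copied, mostly silent versions of these genes, the processed pseudogenes, and a few working paralogues with a narrower range of tissues, such as Rpl3l in muscle and Rpl10l in the testis.

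The cells were untreated F123-ESCs, a male hybrid line of mouse embryonic stem cells whose autosomes come in pairs, the S129 copy from the mother and the CAST copy from the father. The line had been grown on feeder cells and then passaged without them on gelatin before RNA was taken. The 4 libraries, replicates 1 to 4, form a single group with no treated or control samples, and come from 1 cell line, so the spread between them is that of cultures or preparations of these cells. For each gene the deposited values are the RPKM of the S129 and of the CAST allele in each library. Only reads that cover a difference between the strains are counted. RPKM is reads per gene, scaled to the length of the gene and to the reads of that allele in the library. In replicate 1 the reads of an allele came to 28772351 for S129 and 27855621 for CAST. The reads assigned to either allele came to between 34120416 in replicate 4 and 56627972 in replicate 1. Where no allele is named, a level is the mean RPKM of S129 and CAST in a library.

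Of the 10 embryonic stem cell markers looked at, none lay under 1 RPKM and their median was 115 RPKM. Of 10 fibroblast markers, which stand for the feeder cells, 2 lay under 1 RPKM and the median was 5.04 RPKM, with Lum at 0.0462 and Dcn at 0.659 RPKM but Acta2 at 339.5 and Col1a2 at 166 RPKM. The summed level of the fibroblast list ran from 496 RPKM in replicate 1 to 589 RPKM in replicate 3, and its part in the results below was not tested.

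Promoter sequence is shown first, since the pyrimidine run is the feature that these genes are known for. RefSeq promoter windows in the build GRCm38.p6, from 250 bases before to 50 bases after an annotated start, were at hand for 64 of the 85 genes. A run of at least 8 pyrimidines on the sense strand stood within 50 bases of the start in 53 of these 64 genes (82.8%), against 39.2% of 26961 other genes. The windows below are 30 bases long, 5′ to 3′ on the strand of the gene, with the longest run in capitals. Rps6 and Rpl19 were much higher on the CAST allele and Rpl35a on the S129 allele, while Rpl39 and Rpl39l are a pair of paralogues of which the first was listed at 0.

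Rps6 (chr4:86857349-86857378, minus strand): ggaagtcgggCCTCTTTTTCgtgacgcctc
Rpl19 (chr11:98026944-98026973, plus strand): gcggcccacaagCTCTTTCCTTTCgctgct
Rpl35a (chr16:33056469-33056498, plus strand): ggggcttgCCTTCCTCTTTCCgccatcttg
Rpl39 (chrX:37085173-37085202, minus strand): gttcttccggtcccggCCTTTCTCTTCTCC
Rpl39l (chr16:10170192-10170221, plus strand): acacccactgCCTCTCCCTagctcccaggc

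These windows were picked among genes with a run, and their runs were 9 to 14 pyrimidines long. They come from genes that lean to either allele and from a gene listed at 0. The run of Rpl39 reaches the end of the window searched, so it can be longer. Counted from the annotated start, the run began at -1 for Rps6, 32 for Rpl19, 36 for Rpl39 and -26 for Rpl39l. For Rpl35a it began at 24, -5 or -37, by the annotated start used. Whether these runs are the first bases of the mRNA, as a TOP is, was not tested. The motif CTTTC on the sense strand within 50 bases of the start was present in 32 of the 64 genes (50.0%) and in 14.5% of other genes, CTCTT in 31 (48.4%) and 15.5%, and CTTTT in 15 (23.4%) and 12.6%; these 3 can overlap. Searched on both strands of the whole 300 bases, CCGGAAG, the core of an ETS factor motif, was present in 26 genes (40.6%) against 9.85% of others, and AAGATGG, the core of a YY1 motif, in 10 (15.6%) against 7.26%. These are matches of letters, and no binding was measured.

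The levels of the ribosomal protein genes spanned the whole range of the table. The median over the 85 genes was 1746 RPKM, against 0.958 RPKM over all other genes, and 13 of the 20 highest genes of the table were ribosomal protein genes. Levels of at least 10000 RPKM were reached by 8 of them, levels from 1000 to under 10000 RPKM by 41 and levels from 100 to under 1000 RPKM by 14. A further 8 lay from 10 to under 100 RPKM, 9 from 1 to under 10 RPKM and 2 above 0 but under 1 RPKM, and 3 were listed at 0 in all 8 columns. The small subunit genes had a median of 2864 RPKM and the large subunit genes one of 1232 RPKM.

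The highest level was that of Rplp1, an acidic protein of the stalk of the large subunit, with 17797, 17179, 16529 and 21811 RPKM in replicates 1 to 4 (18329 ± 2378, SD, n = 4). Rps18, a protein of the head of the small subunit, came to 17503, 15820, 15157 and 18186 RPKM (16667 ± 1415, SD, n = 4). Rps29, a small zinc-binding protein of the small subunit, had 17434, 12934, 13744 and 16897 RPKM (15252 ± 2244, SD, n = 4). For each of these genes replicates 1 and 4 were above replicates 2 and 3. The ranges of the 3 genes over libraries overlap, but within each library Rplp1 was above Rps18 and Rps18 above Rps29.

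Rps12 followed with 14887, 13066, 13277 and 17482 RPKM (14678 ± 2038, SD, n = 4). Rpl38, known from a mouse mutant with a changed axial skeleton, had 13262, 11212, 10922 and 15905 RPKM (12826 ± 2302, SD, n = 4). The ranges of both also overlap that of Rps29. Within libraries Rps12 was above Rps29 in replicates 2 and 4 and below it in replicates 1 and 3, while Rpl38 was below Rps29 in each library. Among the 80 genes with at least 1 RPKM the coefficient of variation between libraries had a median of 11.7% and ran from 1.40% to 23.1%.

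**Figure D1:**
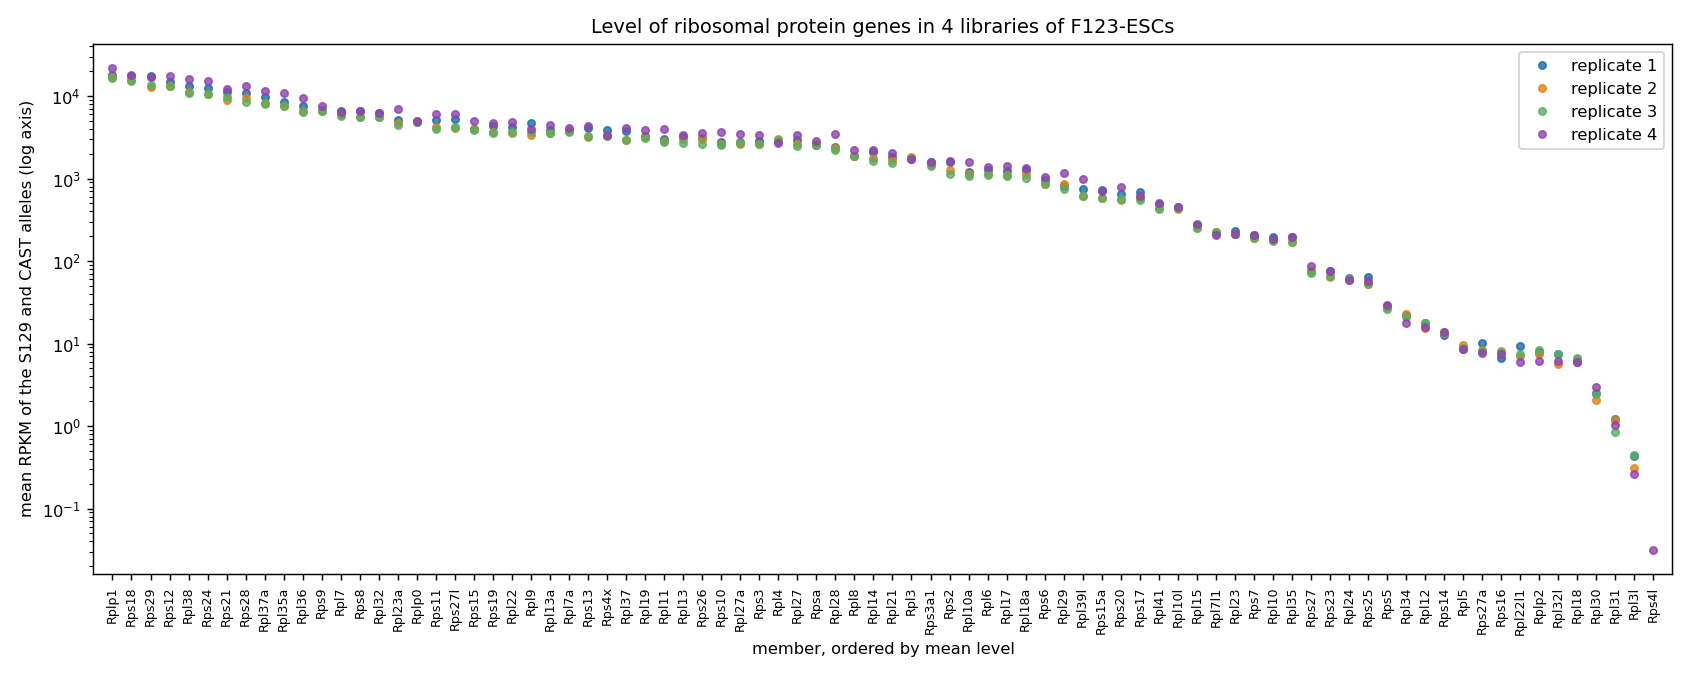
Level of the 82 ribosomal protein genes above 0, ordered by mean; the y axis is the mean RPKM of both alleles on a log axis and each point is 1 of the 4 libraries. The points of a gene lie close together compared with the range between genes, which falls from 18329 RPKM for Rplp1 to 0.00793 RPKM for Rps4l, for which a single library is above 0.

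At the low end, Rpl26, Rpl36a and Rpl39, all proteins of the large subunit, were listed at 0 for both alleles in every library. A value of 0 here says only that no read was assigned to an allele, and which of these genes carry a strain difference was not analysed here. Rps4l, annotated as a transcribed processed pseudogene, lies on chromosome 6 within Tmtc1 on the opposite strand. It rested on 1 read in all 4 libraries, on the CAST allele of replicate 4. Rpl3l, the muscle paralogue of Rpl3, had 0.438, 0.306, 0.451 and 0.260 RPKM and 97 reads in all.

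Genes for constant parts of the ribosome were also low in this table. Rpl31 had 1.23, 1.19, 0.836 and 1.03 RPKM (1.07 ± 0.178, SD, n = 4), from 215 reads. Rpl30, which in yeast represses the splicing of its own transcript, had 2.50, 2.06, 2.44 and 2.99 RPKM (2.50 ± 0.382, SD, n = 4), from 233 reads. Rpl18 had 5.89, 6.34, 6.71 and 6.02 RPKM (6.24 ± 0.367, SD, n = 4), from 3528 reads. The ranges of these 3 genes do not overlap one another. Their annotated spans, introns included, overlap those of genes on the opposite strand, Tbc1d8, D730044K07Rik and Sphk2.

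Only reads over a strain difference are counted, so a level also depends on the strain differences that a gene holds. Their number per gene was not analysed here, and every comparison of levels between genes carries this limit. The length in the unit bears on the order as well. The length in the RPKM could be traced for the genes with reads: it was that of the first annotated transcript for 70, of another transcript for 7 and of no annotated transcript for 5. For 15 genes the transcript was not of the protein-coding kind. With the length of all annotated exons together, the median level was 766 RPKM, 6 of the 10 highest genes stayed among the 10 highest, and the Spearman correlation with the deposited levels was 0.92 over the 82 genes, which share reads and libraries. The medians of the small and large subunit genes were then 815 and 642 RPKM, closer than with the deposited lengths. Rplp1 stayed highest at 18329 RPKM, Rps18 came to 3393 RPKM and Rps24, the sixth highest as deposited with 12252 RPKM, to 903 RPKM.

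A further property is the likeness to other genes. Of all windows of 100 bases along the transcript of a ribosomal protein gene, a median of 35.8% occurred word for word in the transcripts of other annotated genes, mostly processed pseudogenes, and 30 genes shared at least 50% of their windows. Either strand counted, and so did genes annotated over the same stretch of the chromosome. Rpl24 shared 66.8% with the overlapping Gm28037, and Rpl35 52.3% with the overlapping Wdr38. Rpl10 shared 91.6%, Rps6 83.6% and Rpl3 79.4%, whereas 10 genes shared none, among them Rps3, Rps21 and Rpl22. The 63 genes with at least 100 RPKM had a median of 34.2% and the 22 genes below that one of 38.1%. How the authors counted reads that fit several copies is not given in the sources used here, so levels of genes with a high share, and of the antisense and overlapping neighbours named above, are uncertain.

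The genes are spread over every autosome but chromosome 19, and the X chromosome. Chromosome 7 holds 14 of them. Chromosomes with rRNA gene arrays (rDNA-chromosomes 12, 16, 18 and 19) hold 8, or 9.41%: Rps7, Rps29 and Rpl10l on chromosome 12, Rpl24, Rpl35a and Rpl39l on chromosome 16, and Rps14 and Rpl17 on chromosome 18. The levels of these 8 genes ran from 13.5 RPKM for Rps14 to 15252 RPKM for Rps29 with a median of 592 RPKM, against 1929 RPKM for the 77 others, whose range from 0 to 18329 RPKM encloses them.

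The next comparison was between the alleles in the same cells. For 80 of the 85 genes the 2 alleles together averaged at least 1 RPKM, and these could be tested with limma on the difference in log2(RPKM + 0.1) within each library, adjusted by the Benjamini-Hochberg method over the 13341 genes tested. Of the 78 autosomal ones, 29 were higher on S129 and 34 on CAST (adjusted p below 0.05), so that 80.8% were called, each in the same direction in 4 of 4 libraries. Among all 12869 autosomal genes tested, 61.4% were called, 28.9% for S129 and 32.5% for CAST. Deeper genes are called more often: of the 3494 other autosomal genes with at least 10000 reads, 69.4% were called.

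Changes of at least 2-fold were called in 17 of the 78 genes (21.8%), 9 for S129 and 8 for CAST, against 11.9% of all autosomal genes (6.29% for S129 and 5.63% for CAST) and 5.92% of the other genes with at least 10000 reads. The median absolute difference was 0.37 (log2) for the 78 genes, 0.29 for all autosomal genes tested and 0.21 for the other deeply covered genes. The large subunit genes had 16 calls for S129 and 21 for CAST out of 47, and the small subunit genes 13 and 13 out of 31.

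**Figure D2:**
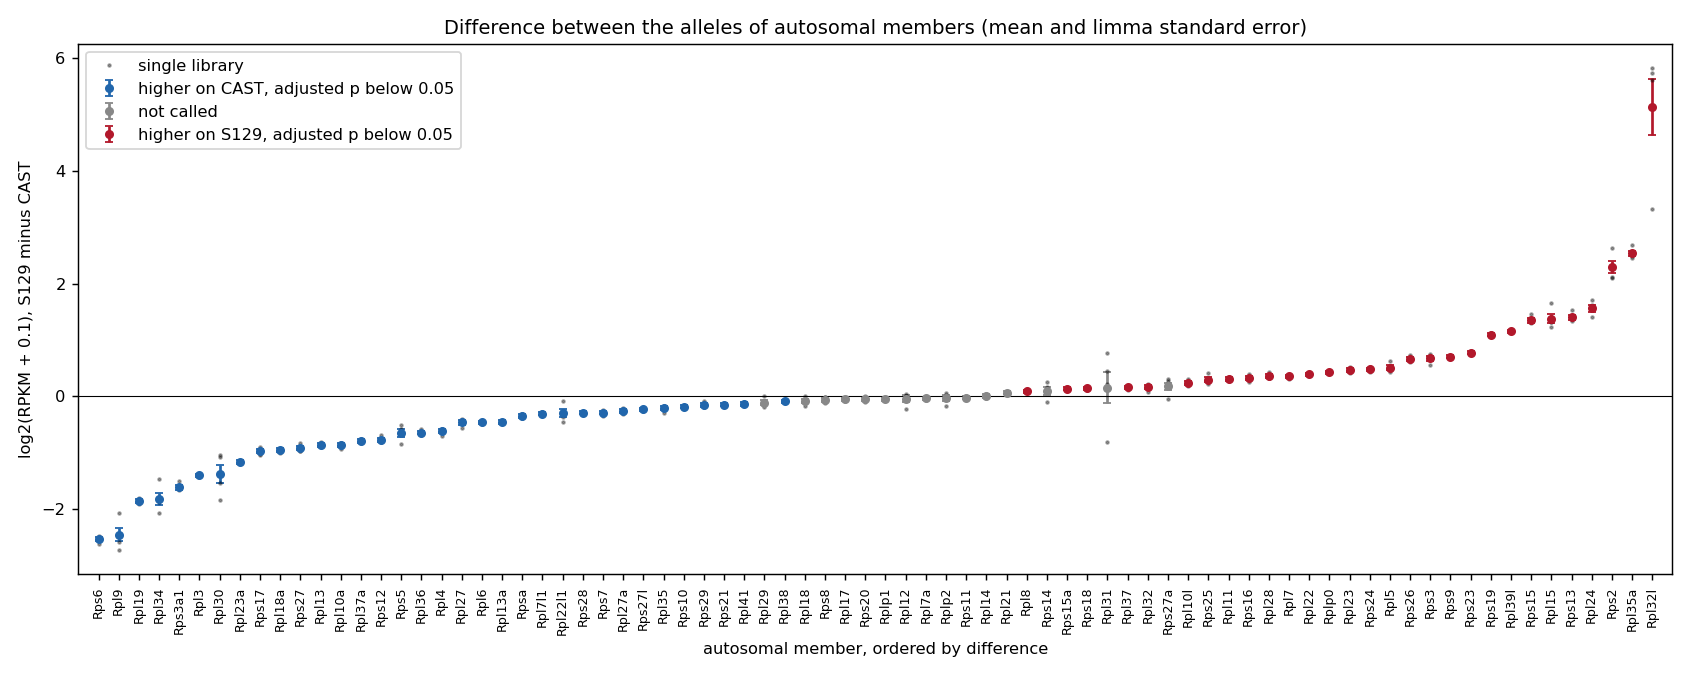
Difference between the alleles, in log2(RPKM + 0.1) and positive for S129, for the 78 autosomal ribosomal protein genes that could be tested; large points with bars are the mean and its standard error from limma, small points the 4 libraries. Blue genes, from Rps6 at -2.53, were higher on CAST and red genes, up to Rpl32l at 5.13, on S129, and for most genes the libraries lie on top of one another.

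Rps6, the small subunit protein that S6 kinase phosphorylates downstream of mTOR, showed the largest difference toward CAST. Its S129 allele had 285, 261, 259 and 290 RPKM and its CAST allele 1622, 1477, 1442 and 1772 RPKM in replicates 1 to 4. The alleles did not overlap, and the difference was -2.53 ± 0.04 (log2, SE, n = 4; limma adjusted p = 4.94e-06), a 5.76-fold higher CAST value.

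Rpl9, a protein of the base of the large subunit stalk, had 1227, 1060, 1060 and 1536 RPKM on S129 and 8072, 5744, 6333 and 6430 RPKM on CAST. The difference was -2.45 ± 0.12 (log2, SE; limma adjusted p = 0.000155), and its spread between libraries was wider than that of Rps6. Rpl19, of the large subunit, had 1394, 1387, 1304 and 1742 RPKM on S129 and 5148, 4964, 4897 and 6088 RPKM on CAST, which gives -1.86 ± 0.03 (log2, SE; limma adjusted p = 9.29e-06).

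Rpl34 and Rps3a1 on chromosome 3 completed the 5 largest differences toward CAST. Rpl34 was low, with 8.52, 9.74, 8.88 and 9.30 RPKM on S129 and 36.2, 35.2, 33.0 and 25.8 RPKM on CAST, a difference of -1.81 ± 0.11 (log2, SE; limma adjusted p = 0.000291). Rps3a1 had 772, 717, 687 and 819 RPKM on S129 and 2412, 2273, 2126 and 2329 RPKM on CAST, a difference of -1.61 ± 0.04 (log2, SE; limma adjusted p = 2.24e-05). In both genes every CAST value lay above every S129 value.

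Toward S129, the largest autosomal difference was that of Rpl32l, which is annotated as a processed pseudogene within Map7 on the same strand, so its reads can be those of Map7. It had 14.9, 11.3, 13.7 and 12.1 RPKM on S129 and 0.180, 0.102, 1.27 and 0.150 RPKM on CAST, 5.13 ± 0.50 on the log2 scale (SE; limma adjusted p = 0.00123) from 521 reads in all. Replicate 3 stood apart with the highest CAST value, and without it the difference was 5.73 (log2). With a pseudocount of 1 in place of 0.1 it was 3.36.

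Rpl35a, a large subunit protein mutated in some families with Diamond-Blackfan anaemia, had 14478, 12790, 12744 and 18919 RPKM on S129 and 2539, 2344, 2260 and 2941 RPKM on CAST. The difference of 2.54 ± 0.05 (log2, SE; limma adjusted p = 1.21e-05) is 5.80-fold. Rps2, a core protein of the small subunit, had 2740, 2041, 1844 and 2701 RPKM on S129 and 442, 475, 424 and 536 RPKM on CAST, 2.30 ± 0.11 on the log2 scale (SE; limma adjusted p = 0.000131). Rps2 overlaps the noncoding gene Snhg9 on the opposite strand.

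Rpl24, the gene changed in the Belly spot and tail mouse, had 89.4, 88.6, 91.0 and 90.5 RPKM on S129 and 33.7, 30.5, 29.6 and 27.7 RPKM on CAST (1.56 ± 0.06, log2, SE; limma adjusted p = 7.54e-05). Rps13 had 5908, 4640, 4738 and 6349 RPKM on S129 and 2338, 1792, 1836 and 2197 RPKM on CAST (1.40 ± 0.05, log2, SE; limma adjusted p = 4.83e-05). At the other end, Rplp1 with 18034 ± 2325 RPKM on S129 and 18625 ± 2435 RPKM on CAST (SD, n = 4) was not called. Its difference was -0.05 ± 0.03 (log2, SE, limma adjusted p = 0.226). In whole reads the S129 share of Rplp1 was 50.2% ± 0.17 (SD, n = 4), since RPKM scales each allele to its own reads.

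The 4 X-linked genes check the assignment of reads, since male cells carry a single X chromosome, here the maternal S129 copy. Rps4x had 7666, 6517, 6562 and 6759 RPKM on S129 and 1.03, 1.04, 1.22 and 1.78 RPKM on CAST. Rpl10 had 388, 358, 354 and 372 RPKM on S129 and 0.514, 0.930, 0.121 and 2.05 RPKM on CAST. Both were thus almost wholly S129 (99.98% and 99.8% of their reads), and Rpl36a and Rpl39 were listed at 0. For Rps4x and Rpl10 the level as a mean of both alleles, 3439 and 185 RPKM, is close to that of the S129 allele divided by the number of alleles.

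The differences were then set against the surroundings of each gene. For the 76 autosomal ribosomal protein genes with at least 400 reads, the S129 share of the reads was set against the median share of the 25 measured protein-coding genes on either side that are not ribosomal protein genes. The share was over 5 percentage points above the neighbours in 24 genes and over 5 points below in 22, and the other 30 lay within 5 points. The median absolute gap was 6.24 points. For 3440 other autosomal protein-coding genes with at least 10000 reads it was 3.28 points, and 33.6% of them were more than 5 points away, against 60.5% of the ribosomal protein genes.

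The neighbours themselves had a median outside 45% to 55% for 6 genes, on chromosomes 3 and 16. On chromosome 3, Rps27 had an S129 share of 35.5% ± 0.96 (SD, n = 4) beside a neighbour median of 36.1%, a gap of -0.587 points for a difference between the alleles of -0.91 (log2). Rps3a1 at 25.4% ± 0.95 and Rpl34 at 22.8% ± 3.3 (SD, n = 4) lay below neighbour medians of 37.5% and 38.6%. On chromosome 16, Rpl39l at 69.8% ± 0.22 lay 5.05 points above its neighbours, Rpl24 at 75.5% ± 1.7 lay 15.6 points above and Rpl35a at 85.7% ± 0.87 lay 20.7 points above (SD, n = 4).

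Elsewhere, genes lay far from neighbours near 50%. Rps6 at 15.3% ± 0.53 lay 34.8 points under neighbours at 50.1%, and none of its 50 neighbours had a lower share. Rpl9 at 16.1% ± 2.7 lay 35.8 points under neighbours at 51.9%, of which 1 was lower. Rps2 at 83.5% ± 2.2 was 33.7 points above neighbours at 49.8%, and Rps13 at 73.3% ± 1.2 was 23.1 points above neighbours at 50.2% (SD, n = 4); in both cases all 50 neighbours had a lower share.

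**Figure D3:**
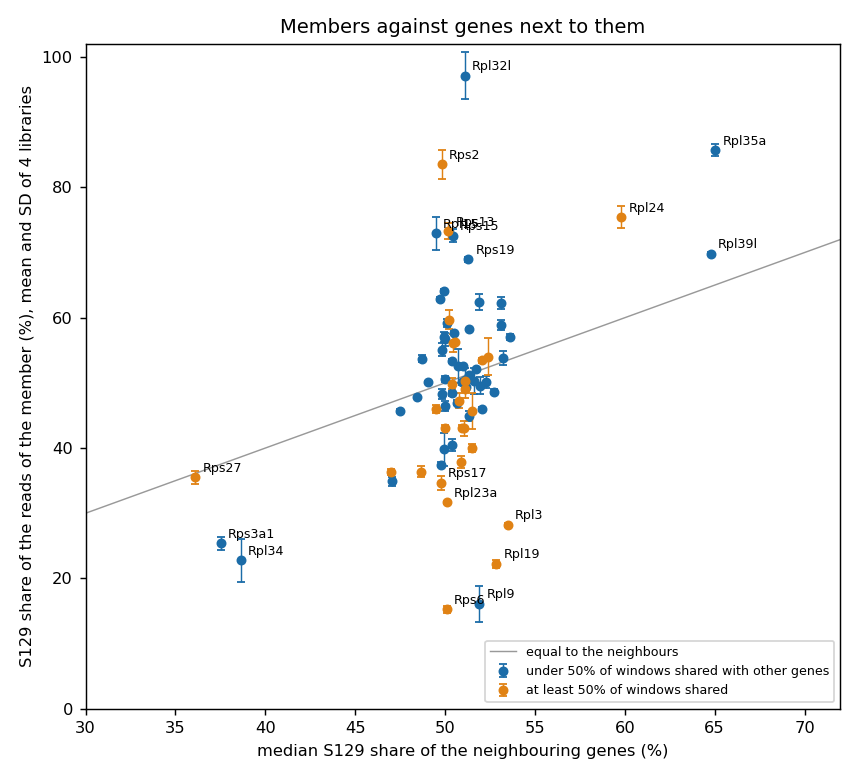
S129 share of the reads of 76 autosomal ribosomal protein genes (y axis, mean and SD of 4 libraries, in percent) against the median share of the genes next to them (x axis, in percent), with a line where both are equal. Most genes have neighbours between 45% and 55% and spread from 15.3% for Rps6 to 97.1% for Rpl32l, while 3 genes of chromosome 3 and 3 of chromosome 16 lie to the left and right.

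The share of windows found in other genes, overlapping genes included, was set beside these gaps. The 27 genes with at least 50% of their windows shared had a median absolute gap of 7.99 points and the 49 others one of 5.30 points, and 70.4% and 55.1% were more than 5 points from their neighbours. Across the 76 genes, which share the libraries, the Spearman correlation of window share and absolute gap was 0.21. Genes without a shared window also stood off, such as Rps3 at 62.4% ± 1.2 (SD, n = 4), which lay 10.5 points above its neighbours. The part of reads misplaced between copies was not tested.

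The alleles were also compared by their sums. The autosomal ribosomal protein genes made up 30.2%, 28.0%, 27.8% and 33.1% of the summed RPKM of all autosomal genes on S129 in replicates 1 to 4, and 28.0%, 27.4%, 26.4% and 32.1% on CAST. S129 was higher in 4 of 4 libraries by 1.33 ± 0.65 percentage points (SD, n = 4). An exact test that flips the signs of the library differences, two-sided, gave p = 0.125, which is as low as 4 libraries can reach. With protein-coding genes alone as the total the difference was -0.039 ± 0.32 points, and in whole reads 0.088 ± 0.19 points (SD, n = 4), both smaller than their spread between libraries.

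Paralogues were compared within each library in 5 pairs, with Benjamini-Hochberg adjustment over the pairs. Each pair had the same order in 4 of 4 libraries, for which the same exact sign-flip test gives p = 0.125 (adjusted p = 0.125), again the floor of the design. Differences in length and in strain differences covered enter these values. With the length of all annotated exons, each pair kept its order in 4 of 4 libraries, but the size moved most for Rpl7 and Rpl7l1, to 2.56 ± 0.14, and for Rpl10 and Rpl10l, to -2.81 ± 0.04 (log2, SD, n = 4).

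In 3 pairs the gene was higher than its paralogue. Rpl3 had 1707, 1823, 1748 and 1708 RPKM, a log2 difference of 11.90 ± 0.31 (SD, n = 4) from Rpl3l, which had under 0.5 RPKM in each library. Rpl22 had 4244, 3581, 3660 and 4797 RPKM and Rpl22l1 9.23, 7.12, 7.54 and 6.003 RPKM, a log2 difference of 9.08 ± 0.36 (SD, n = 4). Rpl7 had 6558, 5871, 5744 and 6395 RPKM and Rpl7l1 216, 226, 225 and 208 RPKM, a log2 difference of 4.81 ± 0.14 (SD, n = 4).

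In the other two pairs the paralogue was higher. Rps27 had 75.5, 75.8, 72.5 and 86.0 RPKM and Rps27l, a p53 target in other cells, 5192, 4058, 4170 and 6030 RPKM, a log2 difference of -5.95 ± 0.19 (SD, n = 4). Rps27 shared 58.9% of its windows with other genes, and Rps27l none. Rpl10 had 194, 180, 177 and 187 RPKM and Rpl10l, an intronless copy on chromosome 12, 448, 422, 437 and 453 RPKM, a log2 difference of -1.25 ± 0.04 (SD, n = 4). The cells have no CAST copy of Rpl10. On S129 alone, Rpl10 at 368 ± 15.5 RPKM was also below Rpl10l at 477 ± 17.4 RPKM (SD, n = 4). Rpl10 shared 91.6% of its windows with other genes and Rpl10l none, although their coding sequences were 84.74% identical.

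For the remaining pairs no fold is given, since 1 gene was at 0 or rested on a single read. Rpl39l, best known from the testis, had 747, 620, 622 and 985 RPKM while the X-linked Rpl39 was listed at 0; their coding sequences were 84.97% identical. Rps4x had 3834, 3259, 3281 and 3381 RPKM, and Rps4l a single read.

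**Figure D4:**
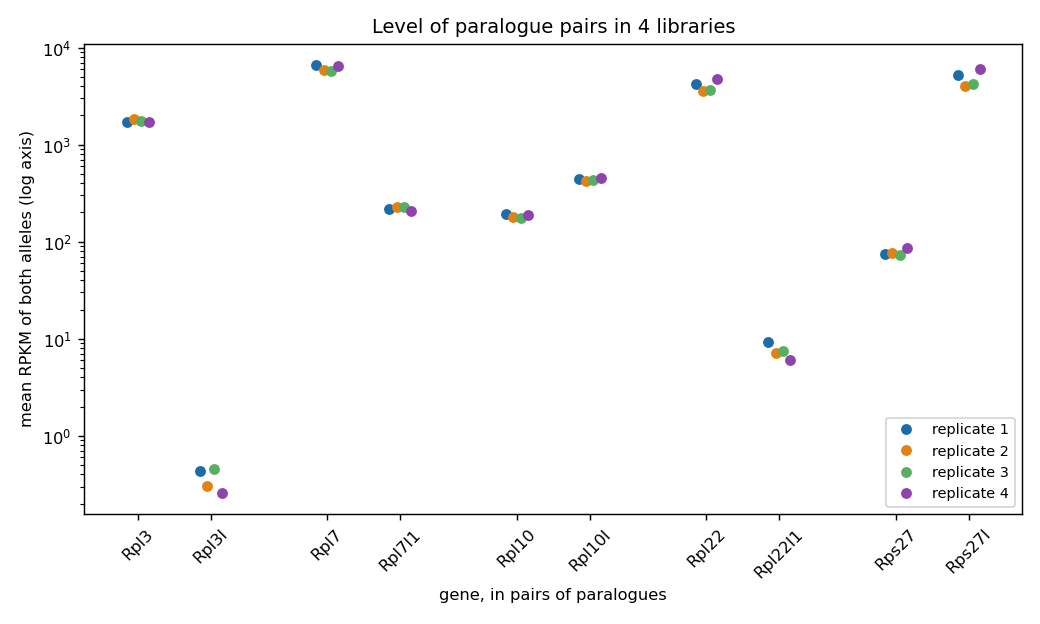
Mean RPKM of both alleles (log axis) for 5 pairs of paralogues, each point 1 of the 4 libraries. Rpl3, Rpl7 and Rpl22 lie above their paralogues, and Rpl10 and Rps27 below theirs, with no overlap between the genes of a pair.

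Between libraries, most of the genes had a like order. They took 18.5%, 16.6%, 16.3% and 20.7% of all assigned reads in replicates 1 to 4, and their summed level was 278613, 245941, 241856 and 315187 RPKM. Of the 80 genes with at least 1 RPKM, 50 were highest in replicate 4 and 20 in replicate 1, while 46 were lowest in replicate 3 and 20 in replicate 2. The level in replicate 4 was above the mean of replicates 2 and 3 in 64 of the 80 genes, with a median ratio of 1.20. The libraries belong to a single group, so this is a description without a test, and fewer cells of a type and less RNA per cell cannot be told apart in it.

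Other genes were set beside this. Over 505 other protein-coding genes of at least 100 RPKM and a length up to 1200 bp, the median ratio of replicate 4 to replicates 2 and 3 was 1.04, and 53.9% were higher in replicate 4. Over 376 longer ones the ratio was 0.902, and over 11866 other genes of at least 1 RPKM it was 0.890. Of these, 27.7% and 24.0% were higher in replicate 4. Replicate 4 was the highest library for 45.9% of the 505 genes, 20.7% of the 376 and 16.4% of the 11866. For the ribosomal protein genes this share was 62.5%. Among the ribosomal protein genes, the 64 with a length up to 1200 bp had a ratio of 1.24 and the 16 with a longer one 1.09. Replicate 4 was also the library with the fewest reads, and the part of depth, length or RNA quality was not tested.

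**Figure D5:**
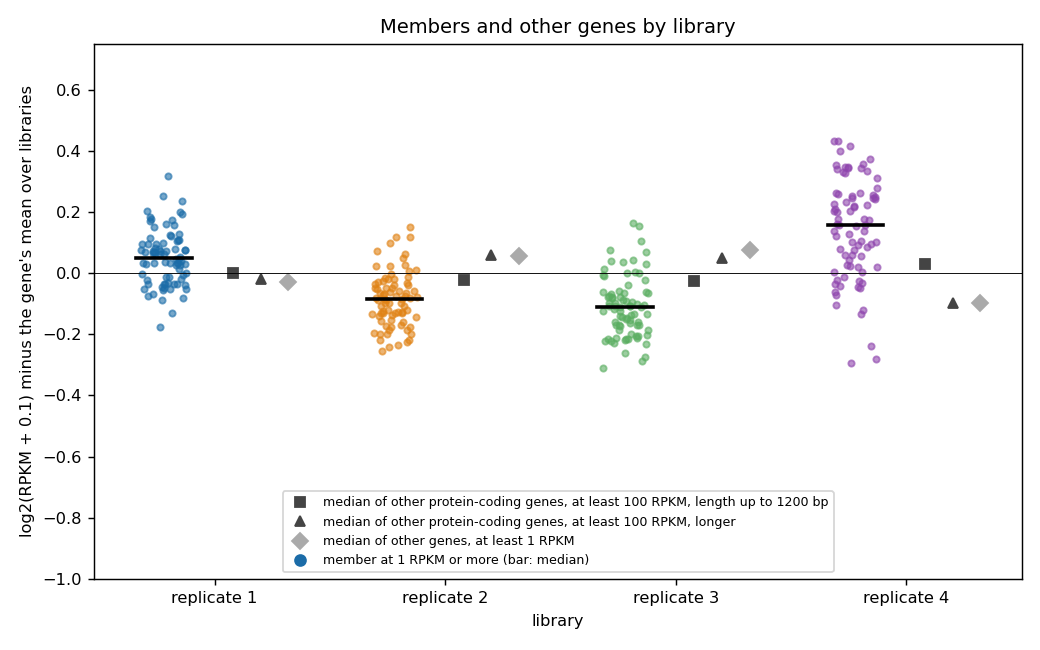
Deviation of log2(RPKM + 0.1) from the mean of the gene over libraries, for the 80 ribosomal protein genes with at least 1 RPKM (coloured points, black bar at the median) and as medians for groups of other genes (grey symbols). The median of the ribosomal protein genes is 0.16 in replicate 4 and -0.11 in replicate 3, while that of all other genes of at least 1 RPKM is -0.10 in replicate 4 and 0.08 in replicate 3.

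Single genes show how wide this was. Rpl28 had 2420, 2350, 2210 and 3466 RPKM, so that replicate 4 stood well above the rest. Rpl39l, with the largest coefficient of variation among the 80 genes (23.1%), also peaked in replicate 4. Rpl4, with a length of 1538 bp behind its RPKM, went the other way with 2846, 3006, 2933 and 2661 RPKM, lowest in replicate 4.

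Other genes of the same pathway give the surroundings. Of 20 genes that are no ribosomal protein genes by the rule but whose mRNAs carry a TOP, all were tested. Of these 5 were higher on S129 and 6 on CAST, and their median absolute difference was 0.20 (log2). Among all autosomal genes tested, 28.9% were higher on S129 and 32.5% on CAST, or 61.4% on either. Of the other autosomal genes with at least 10000 reads, 69.4% were called. Fau, which encodes ribosomal protein S30 joined to a ubiquitin-like protein, had 3841, 3614, 3512 and 4878 RPKM, highest in replicate 4, and was higher on CAST, with a difference of -1.29 ± 0.03 (log2, SE; limma adjusted p = 1.77e-05). The elongation factor gene Eef1g had a difference of 0.86 ± 0.03 (log2, SE; limma adjusted p = 6.27e-05). The summed level of the TOP list was 14635, 15330, 15014 and 15040 RPKM, without the rise in replicate 4. Single genes of the list went both ways, and the sum is set mostly by the abundant ones. Fau and Eef1b2 (1032, 955, 961 and 1067 RPKM) were highest in replicate 4. Eef1a1 (2714, 3296, 3099 and 2347 RPKM) and Vim (1641, 1843, 1785 and 1543 RPKM) were lowest in it.

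Of 31 genes put on a list for ribosome assembly and RNA polymerase I, 30 were present and tested. Among them was Aarsd1, whose part in either process was not checked. Of the 29 autosomal genes tested from the list, 8 were higher on S129 and 11 on CAST, against 28.9% and 32.5% of all autosomal genes tested. Their median absolute difference was 0.18 (log2). The largest differences were those of the X-linked Dkc1, the pseudouridine synthase dyskerin, with 96.3 RPKM on S129 and 0.0516 RPKM on CAST, of Rrn3, a polymerase I initiation factor on chromosome 16, at 1.01 ± 0.03 (log2, SE; limma adjusted p = 3.15e-05), and of Nmd3, the export adaptor of the large subunit on chromosome 3, at -0.67 ± 0.04 (log2, SE; limma adjusted p = 0.000384). The S129 share of the reads was 67.8% ± 0.14 for Rrn3 and 39.5% ± 1.3 for Nmd3 (SD, n = 4), where the other measured genes of chromosomes 16 and 3 had medians of 62.6% and 38.3%. The summed level of the list was 3814, 4012, 3973 and 3561 RPKM, lowest in replicate 4.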

How the data were processed

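RNAseq of 4 libraries of F123-ESCs was analysed from the processed table. The authors removed rRNA reads, trimmed with Trimmomatic 0.40 and aligned with STAR to mm10 masked at strain differences, and SNPsplit divided reads by allele. The deposited values are RPKM per gene, allele and library. The counting program and annotation are not given in the sources used here. The deposited averages and their log10 were not used. The reads and lengths behind the RPKM were recovered from value steps, with reads whole within 0.02 for 87.0% of genes at the length of the first GENCODE M21 transcript. Reads carry no molecular identifiers.

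Genes averaging at least 1 RPKM over both alleles were tested with limma 3.58.1 (R 4.3.3) on within-library differences of log2(RPKM + 0.1), which understates differences of low genes, with a threshold of 0.05. The code was tested on simulated data. Columns of the same library deviated together (correlation 0.155 to 0.278 over 10915 genes, and -0.249 to 0.223 between different libraries), and the pairing comes from both alleles being read in one library. Genes and lists were chosen with earlier results of these data known. Named are the 5 highest and lowest levels, genes at 0, the 5 largest autosomal differences in each direction, X-linked genes, paralogues, genes whose neighbours lie outside 45% to 55%, genes with a library apart and up to 3 genes of each pathway list; others were chosen after their values were seen. Alternatives were other pseudocounts, filters, scalings, lengths and totals, no replicate block, a variance trend, other neighbours and each library left out. Counts and sums of the TOP list cover all its genes, but 1 gene that the rule would name is not reported here.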

Additional observations from a re-analysis of the deposited data

Results flagged for a closer look

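By Dixon's criterion for 4 values, 10 of 158 sets of values had a library apart from the rest, where chance gives about 7.9. For the level, replicate 4 was apart for Rps15 at 5006 RPKM (others 3902 to 4013), for Rpl28 at 3466 RPKM (others 2210 to 2420) and for Rpl8 at 2220 RPKM (others 1859 to 1898), and replicate 1 for Rpl23 at 233 RPKM (others 211 to 215). For the difference between the alleles (log2, S129 minus CAST), replicate 4 was apart for Rpl4 at -0.69 (others -0.59 to -0.58), replicate 1 for Rplp1 at -0.024 (others -0.054 to -0.053) and for Rpl28 at 0.43 (others 0.33), replicate 2 for Rpl12 at -0.22 (others 0.01 to 0.04), and replicate 3 for Rps15 at 1.46 (others 1.31 to 1.32) and for Rpl32l at 3.33 (others 5.61 to 5.82).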

How the results depend on the processing

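Counts of autosomal ribosomal protein genes called stayed within 1.5 times under every alternative run. They ran from 22 (no replicate block) to 31 (equal autosomal sums) for S129 and from 24 (no replicate block) to 39 (variance trend) for CAST, and from 24 to 28 and 29 to 33 with a library left out. Equal autosomal sums moved the median of all genes by 0.10 (log2), and gave 31 genes for S129 and 27 for CAST. Without the replicate block, that is without the pairing of the alleles in a library, 17 of the 63 autosomal calls were lost. Among the genes that the naming rule covers, 7 lost it: Rpl8, Rpl22l1, Rpl28, Rpl38, Rps18, Rps27l and Rps29 (adjusted p between 0.144 and 0.677). Rpl8 and Rpl38 also lost it without the filter on low values and with any 1 library left out, Rpl22l1 without replicate 1, 2 or 3 (adjusted p = 0.0764, 0.0686 and 0.0726) and with equal autosomal sums (0.0530), Rps29 likewise (0.0627, 0.0765, 0.0759 and 0.314) and Rps18 without replicate 1 or 3 (0.0543 and 0.0599). Over all autosomal calls, leaving out a library lost 2 (replicate 4) to 10 (replicate 3). Centred on neighbours, 6 were lost, of which Rpl7l1, Rps18, Rps27 and Rps29 are under the naming rule. Under the variance trend Rplp1 was called (adjusted p = 0.0123).

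The direction turned for genes close to 0 (log2): with equal autosomal sums Rpl12 (0.063), Rpl18 (0.022), Rpl38 (0.013) and Rplp1 (0.057), centred on neighbours Rplp1 (0.059), and without replicate 2 Rpl12 (0.019) and Rpl31 (-0.046). With a library left out, Rpl12 ran from -0.065 (without replicate 1) to 0.019 and Rpl31 from -0.046 to 0.48 (without replicate 3). The summed share was -0.039 percentage points, less than its SD, with protein-coding genes as the total. The median level was 766 RPKM with the length of all exons, which, like its use for the subunits and paralogues, was added after seeing the data. Depth limits the low genes: Rpl30 and Rpl31 rest on 233 and 215 reads.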
